A study of Drosophila melanogaster with 5 samples.

Results

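Transcription starts carry H3K18ac, an acetyl mark on the tail of histone H3 that lies at active promoters and enhancers. The regions described here are the H3K18ac peaks of the wing disc that span an annotated start and carried less of the mark after etomoxir. They numbered 543 of the 2626 peaks in the deposited table, which lists only peaks whose difference had an FDR under 0.05. Other H3K18ac peaks of the disc are not listed, so shares of listed peaks are not shares of all peaks. The 543 were chosen by 3 columns of that table. The peak is annotated as a promoter, the distance between the peak and the nearest start is 0, and the etomoxir value minus the control value is below 0. The loss itself therefore selected the members, and every difference given for them is a description.

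The mark was mapped by Cut&Run, in which an antibody against H3K18ac directs a nuclease to the chromatin of permeabilised tissue and the released fragments are sequenced. All 5 libraries came from wing discs of Drosophila larvae of both sexes, in the third instar, with the genotype [w1118]. The etomoxir group held 2 libraries from discs kept for 2 h in explant culture with 500 µM of the drug. The control group held 3 libraries, namely 2 of drug-free explant cultures of the same length and 1 of untreated discs that were never cultured. Drug and culture were thus not fully matched between the groups. The study's reporting summary gives many more unique reads for a cultured control than for the other libraries. The table holds 1 value per group and peak, so the spread between libraries cannot be shown for any peak, and which libraries were high or low is not known.

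Acetyl groups for histones are taken from acetyl-CoA, and fatty acid β-oxidation (FABO) in mitochondria is a source of it. Etomoxir blocks the entry of long-chain fatty acids into mitochondria and thereby FABO. In flies the acetyltransferase Nejire, the CBP orthologue, acetylates H3K18. A core promoter is the stretch around a start on which RNA polymerase assembles. Its sequence classes differ in use: initiator and TATA box promoters are typical of regulated and developmental genes, whereas promoters with the DNA replication-related element (DRE) or motif 1 are typical of genes used in most cells.

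The starts of dpp, the BMP-type morphogen of the wing disc, of the Polycomb group genes ph-p and ph-d, of stg, the Cdc25 phosphatase that drives entry into mitosis, and of the lncRNAs with large losses carry the results below. Their sequences are shown because the comparison of promoter classes rests on such letters. Each run is the 60 bases before the start and the 10 bases from the start on, written 5′ to 3′ on the strand of the gene, from the RefSeq genome of Release 6 (dm6). Capitals mark a TATA box (TATAAA), an initiator (TCAGT), a DRE (TATCGAT) or an E-box (CAGCTG) found by the search described below. The DRE and the E-box were accepted on either strand. Letters of a TATA box or initiator away from their known distance from the start stay in lower case, as in ph-d and CG6398. Runs without capitals held no accepted match of these motifs in these bases.
dpp, first start, chr2L:2428312-2428381, plus strand: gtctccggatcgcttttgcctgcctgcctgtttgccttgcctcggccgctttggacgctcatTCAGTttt
dpp, last start, chr2L:2454677-2454746, plus strand: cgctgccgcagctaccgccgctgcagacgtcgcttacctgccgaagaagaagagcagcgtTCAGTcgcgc
stg, chr3R:29255791-29255860, minus strand: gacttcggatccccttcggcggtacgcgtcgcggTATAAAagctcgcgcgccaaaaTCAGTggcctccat
CG6398, chrX:17830768-17830837, plus strand: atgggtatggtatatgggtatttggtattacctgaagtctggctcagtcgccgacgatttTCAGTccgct
tai, chr2L:9176298-9176367, plus strand: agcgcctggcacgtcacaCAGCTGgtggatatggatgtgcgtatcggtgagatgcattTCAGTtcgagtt
Wnt6, chr2L:7333654-7333723, plus strand: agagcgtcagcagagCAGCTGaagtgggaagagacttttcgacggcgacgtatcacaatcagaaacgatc
Abp1, chr3L:13486271-13486340, minus strand: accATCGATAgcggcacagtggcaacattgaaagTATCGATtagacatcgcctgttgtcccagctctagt
ph-p, chrX:2138362-2138431, minus strand: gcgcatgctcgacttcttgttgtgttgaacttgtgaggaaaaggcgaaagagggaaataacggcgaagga
ph-d, chrX:2123277-2123346, minus strand: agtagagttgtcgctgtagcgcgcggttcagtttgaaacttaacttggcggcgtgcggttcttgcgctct
lncRNA:CR45424, chr3L:3244846-3244915, plus strand: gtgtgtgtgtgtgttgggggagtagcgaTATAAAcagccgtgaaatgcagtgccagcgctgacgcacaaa
lncRNA:CR45640, chr3R:16208613-16208682, plus strand: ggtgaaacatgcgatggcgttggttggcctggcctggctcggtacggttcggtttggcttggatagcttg

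The values are log2 mean normalised read counts over the whole peak, as given for each group, and a difference of 1 is a halving of the mean count. Across the 543 members the median was 5.88 in the etomoxir group and 6.96 in the control group. The differences, etomoxir minus control, had a median of -1.0, quartiles of -1.31 and -0.80, and a range from -3.39 to -0.39. Among the members 281 (51.7%) were lower by at least 1 and 29 (5.34%) by at least 2. Of all 2626 listed peaks, gained ones included, 57.5% were lower by at least 1, and 83.5% were lower by any amount. Among the 2194 lost peaks of all classes, members included, 68.9% were lower by at least 1. Of the 740 listed peaks that cover a start, 73.4% (95% Wilson interval 70.1 to 76.4) had less of the mark and 197 had more.

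**Figure D1:**
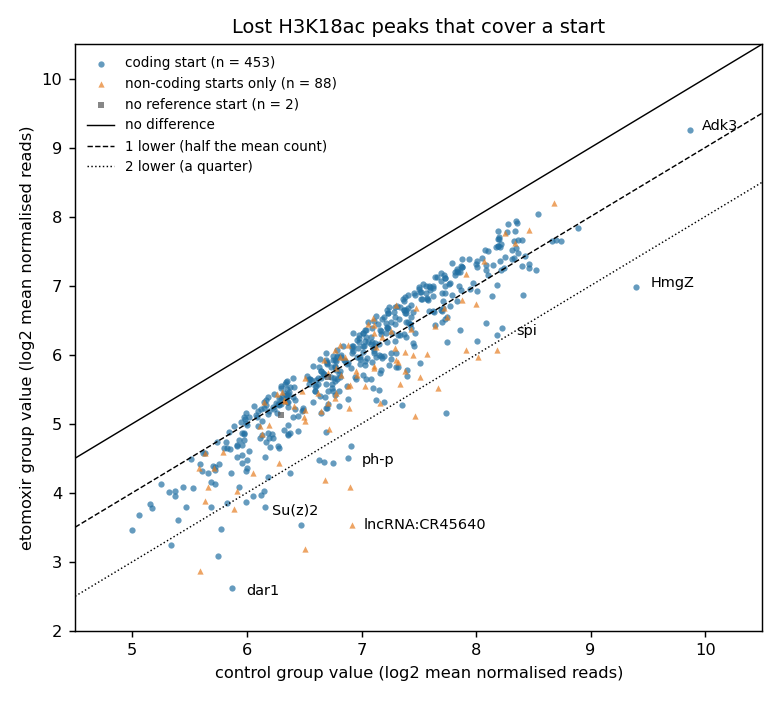
Each point is a lost peak that covers a start, with its etomoxir group value on the y axis and its control group value on the x axis, both in log2 mean normalised reads, and with the kind of start by colour and shape. All points lie under the line of no difference because the loss chose them, and 281 of the 543 lie on or under the dashed halving line. Labels name some of the members described in the text, such as lncRNA:CR45640, which has the largest loss (3.53 against 6.92).

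The edge of the selection lies at small differences. The 3 members just inside it were Ugt302K1 (7.89 in the etomoxir group, 8.28 in the control group), CG31975 (7.79 and 8.19) and Ugt317A1 (7.93 and 8.35), with differences of -0.39, -0.40 and -0.42. Of the 3 peaks just outside it, chb had 8.46 in the etomoxir group and 8.09 in the control group, Vinc had 8.75 and 8.36, and a peak whose gene identifier has no match had 9.01 and 8.64. No listed peak that covers a start had a difference between -0.39 and 0.37, and the table lists only peaks with an FDR under 0.05.

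Peaks over starts were wide. The median width of the members was 1215 bases (321 to 3985), against 780 bases for lost promoter peaks upstream of their start, 906 bases for those downstream and 802 bases for lost peaks outside promoters. The control value rose with width (Spearman's rho 0.90 over 543 peaks of the same libraries), and the value counts reads over the whole peak. Per kilobase, the median control value was 6.66 for the members, against 6.79, 6.74 and 6.77 for these 3 other classes.

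The loss at starts was smaller than in the other lost peaks. The median difference was -1.0 at the 543 members, against -1.26 at the 461 upstream promoter peaks, -1.16 at the 373 downstream promoter peaks and -1.30 at the 817 peaks outside promoters. The smaller loss was also present among peaks of like control value. After the data had been seen, the members were split into a low (182), a middle (182) and a high class (179) by control value. In the low class the median difference was -1.17, against -1.31 in 934 other lost peaks with control values between those of the lowest member and the upper limit of the class. In the middle class it was -0.98 at the members against -1.17 at other lost peaks, and in the high class -0.80 against -1.14. The members remained wider in each class, with median widths of 705 against 636, 1258 against 1089 and 2154 against 1681 bases. Across the 543 members the difference was less negative in wider peaks (Spearman's rho 0.54), and the part of width in the smaller loss was not tested. Within the 136 genes that had a member and another lost peak, the medians were close. The start peak had the smaller loss in 73 of them and the larger loss in 63, and the medians over genes were -1.27 for the start peaks and -1.25 for the others.

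**Figure D2:**
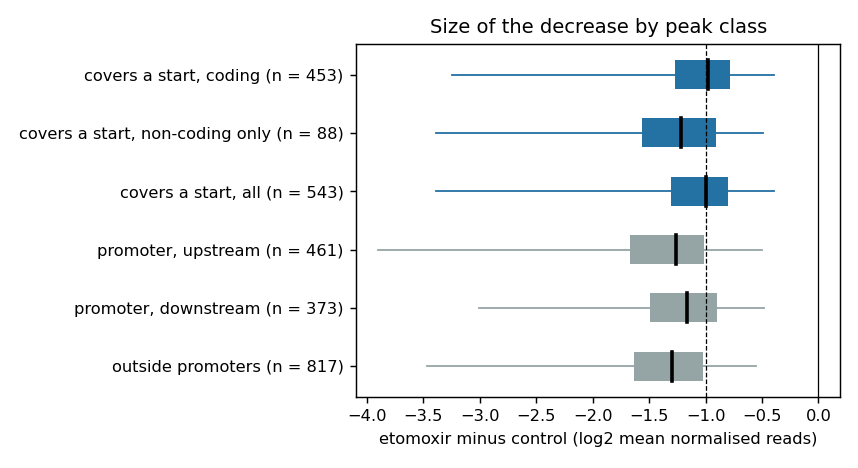
The x axis gives etomoxir minus control in log2 mean normalised reads for lost peaks of each class. Boxes span the quartiles, thick lines mark the medians and thin lines the full range. The peaks over coding starts had the smallest median loss (-0.98), whereas those over non-coding starts only (-1.22) lay between the downstream and the upstream promoter peaks.

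Peaks over the starts of non-coding RNAs lost more than those over coding starts. In the reference annotation, 453 members (83.4%) cover at least 1 start of a protein-coding gene, 88 (16.2%) cover starts of other genes only and 2 cover no start. The median difference was -1.22 over the non-coding starts and -0.98 over the coding starts. The gap was present at low and high control values, with -1.22 against -1.12 in the low class, -1.18 against -0.95 in the middle class and -1.27 against -0.77 in the high class. Of the 88 peaks, 26 lie within the body of a coding gene (median -1.18) and 62 do not (median -1.23). Cut&Run fragments have no strand, so at an antisense RNA the mark cannot be assigned to either transcript. Among gained peaks that cover a start, 9 of 197 (4.57%) cover non-coding starts only.

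The largest loss of all members lay at lncRNA:CR45640 on chromosome 3R (16208404 to 16208915), which had 3.53 in the etomoxir group and 6.92 in the control group. The neighbouring peak at lncRNA:CR45637, with 491 bases between the 2 peaks, had 3.19 in the etomoxir group and 6.51 in the control group, a difference of -3.32. These RNAs have no role assigned here, and the nearest coding gene is mtSSB, which encodes the mitochondrial single-strand DNA-binding protein, 3154 bases from the first peak. The peak at lncRNA:CR46035, which had 4.08 in the etomoxir group and 6.90 in the control group, lies inside osa, a subunit of the BAP chromatin remodelling complex. On the X chromosome, lncRNA:CR44498 had 2.86 in the etomoxir group and 5.59 in the control group. It and lncRNA:CR44499 (3.77 and 5.89) flank mab-21. The coding gene nearest to the lncRNA:CR44498 peak is CG4766, 218 bases away, with mab-21 at 6666 bases. The lncRNA:CR44499 peak lies 97 bases from mab-21. At lncRNA:CR45039, which lies 212 bases from E(spl)mbeta-HLH in the Enhancer of split complex, the value was 5.11 in the etomoxir group and 7.47 in the control group.

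Among coding genes the largest loss lay at dar1, a Krüppel-like zinc finger transcription factor that shapes dendrites. Its single listed peak (3L, 3626057 to 3626602) had 2.62 in the etomoxir group and 5.87 in the control group, a 9.51-fold lower mean count. This is a mean of 6.15 normalised reads against 58.5, and a fold that rests on so few reads is imprecise. The start of knrl, a nuclear receptor related to knirps, had 3.08 in the etomoxir group and 5.75 in the control group. The start of CG6398 had 5.16 in the etomoxir group and 7.74 in the control group. HmgZ, a non-histone chromatin protein of the HMG-box family, was both among the largest losses and among the highest control values, with 6.98 in the etomoxir group and 9.40 in the control group. Its peak lies in a region that the annotation also gives to its neighbour and relative HmgD, so the 2 genes cannot be told apart there.

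The 10 members with the highest control values differed from -2.42 to -0.49, and 7 of them lost more than the median of all members. Adk3, an adenylate kinase, had 9.26 in the etomoxir group and 9.87 in the control group over a peak of 3119 bases, a difference of -0.61. After HmgZ came Tina-1 (7.83 in the etomoxir group, 8.89 in the control group), the glycolytic enzyme gene Pgk (7.64 and 8.74) and the gluconeogenic enzyme gene Pepck2 (7.66 and 8.70). GstD2, a glutathione transferase gene, had 7.65 in the etomoxir group and 8.66 in the control group, a difference of -1.01. Abp1, which encodes an actin-binding protein, had 7.22 and 8.52, and CG32137 had 7.26 and 8.46, differences of -1.30 and -1.20. The antisense RNA asRNA:CR45281 (8.19 and 8.68) and sac (8.04 and 8.54) had the smallest differences of the 10, -0.49 and -0.50. Across all members, the difference was less negative where the control value was higher (Spearman's rho 0.42, 543 peaks, the 2 measures sharing the control value). The smallest loss that entered the list also depended on the level. It was -0.73 in the low class by control value and -0.39 in the high class.

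The members were assigned to 528 genes, of which 432 are protein-coding. This is 3.10% of the 13945 coding genes annotated on the main chromosomes, and the gene lists below are given beside this share. It counts every annotated coding gene, and a gene without an H3K18ac peak in the disc could not have a member. A share among genes that carry the mark cannot be given from the listed peaks. The excess of a list over 3.10% can thus also reflect how many of its genes carry the mark, which was not tested. The loss chose the members, so the counts are descriptions and not tests.

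Transcription factors that pattern the proximal disc and hinge had a member at 8 of 31 genes (25.8%). Sox15, a hinge factor of the Sox family, had 4.47 in the etomoxir group and 6.63 in the control group. The head gap gene ems had 3.97 in the etomoxir group and 6.12 in the control group, and the GATA cofactor gene ush had 4.09 and 5.93. The start of zfh2, which marks the hinge and proximal wing, had 5.22 in the etomoxir group and 6.69 in the control group. The differences of these 4 were -2.16, -2.15, -1.84 and -1.47, and the Iroquois gene ara, bowl, tsh and tio followed with -1.32 to -1.09. A further 10 genes of the list, among them mirr, hth, grn, drm, mamo and E5, had lost peaks but none over a start. The other 13 had no listed peak, and none had a gained one. The list includes Sox15, zfh2, mirr, hth, grn, drm, mamo and E5. The study had probed these as genes with lower H3K18ac after etomoxir in these same data. That they had lost peaks was thus known beforehand, and the counts of this list are partly fixed by it.

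Pouch and compartment factors had a member at 5 of 21 genes (23.8%). The selector gene en, which specifies posterior identity, had 3.79 in the etomoxir group and 5.69 in the control group. The proneural amplifier sens had 4.66 in the etomoxir group and 6.20 in the control group, and ci, the transcription factor of the Hedgehog pathway, had 5.15 and 6.65. The wing cofactor partner sd had 5.65 in the etomoxir group and 7.08 in the control group. The dorsal selector ap completed the set with a difference of -1.30. Of the proneural and Notch target genes, 2 of 14 had a member, namely E(spl)mdelta-HLH (6.20 in the etomoxir group, 8.01 in the control group) and hry (5.35 and 7.13), both bHLH repressors.

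Among signalling genes the ligands stood with 4 of 25 genes (16.0%), the receptors with 2 of 23 (8.70%) and the inhibitors and feedback genes with 0 of 20. Wnt6, a Wnt ligand, had 3.85 in the etomoxir group and 5.83 in the control group. The EGF-type ligand spi had 6.39 in the etomoxir group and 8.23 in the control group, and the Notch ligand Ser had 4.88 and 6.69. The receptors InR (5.60 and 6.34) and grnd (6.44 and 7.14), for insulin and for the TNF ligand Eiger, had differences of -0.74 and -0.70. Of the 20 feedback genes, which include Dad, nkd, aos and dally, 12 had lost peaks, and none of these covered a start.

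The gene with the most members was dpp, with lost peaks over 4 of its starts. The peak that ends at the first start had 5.29 in the etomoxir group and 6.28 in the control group. It also covers a start of lncRNA:CR44912 on the other strand, so its value cannot be assigned to dpp alone. The peaks over the 3 internal starts had 4.54, 4.79 and 4.68 in the etomoxir group, against 5.96, 6.11 and 5.91 in the control group. Their differences of -1.42, -1.32 and -1.23 were larger than the -0.99 of the first start. A further 2 lost peaks assigned to dpp cover no start, and the one just before the internal starts had the largest difference of the gene, -2.1 (4.27 in the etomoxir group, 6.37 in the control group). The first and the last of the 4 starts carry the initiator shown in capitals above, and the 2 between them held none of the searched motifs. The other gene with 3 or more members was btsz, a synaptotagmin-like protein that organises actin at junctions, with differences of -0.60, -0.95 and -1.01.

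**Figure D3:**
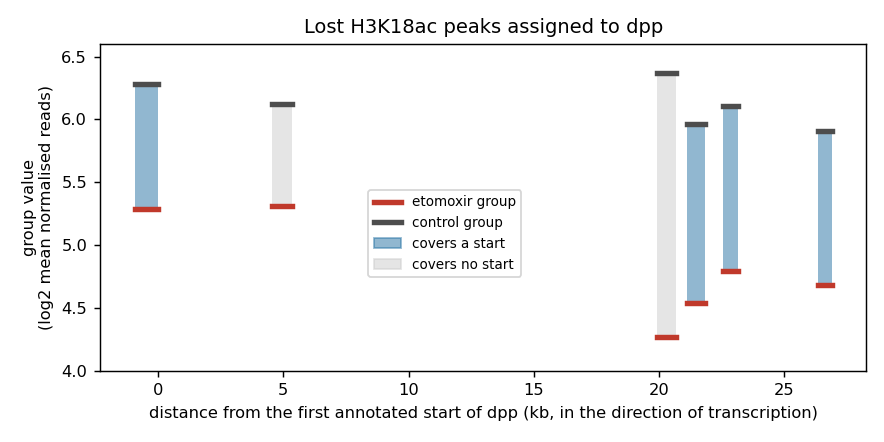
The x axis gives the distance in kb from the first annotated start of dpp, and the y axis the group values in log2 mean normalised reads (red, etomoxir group; grey, control group). Blue peaks cover a start and pale peaks do not, and every one of the 6 peaks has the lower value in the etomoxir group, with the widest gap, 2.1, in the pale peak before the internal starts.

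Of the chromatin regulators, 5 of 20 genes (25%) had a member, and 3 of these are Polycomb group genes, whose products keep developmental genes silent. The start of Su(z)2 had 3.53 in the etomoxir group and 6.47 in the control group, a 7.67-fold lower mean count (11.6 against 88.6 normalised reads). Its relative Psc had a lost peak but none over a start. The polyhomeotic genes ph-p (4.51 in the etomoxir group, 6.88 in the control group) and ph-d (4.03 and 6.15) lie next to each other and share much of their sequence, so reads from their near-identical stretches cannot be assigned with certainty. Su(z)2 also had 4 lost peaks further from its start, with differences from -3.20 to -1.39. The BTB transcription factors lola and psq had differences of -1.39 and -1.31.

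Of the ecdysone response genes, 3 of 15 (20%) had a member. The coactivator gene tai had 4.23 in the etomoxir group and 6.18 in the control group, the receptor gene EcR had 5.47 and 6.8, and br, a zinc finger factor of metamorphosis, had 5.31 and 6.58. Growth control genes had 1 of 15, stg, with 5.78 in the etomoxir group and 7.40 in the control group. The junction gene vari had 2 members, with differences of -1.71 and -1.05. Among 17 genes of FABO and acetyl-CoA metabolism, AcCoAS alone (5.88%) had a member. Acsl and ACC had lost peaks away from a start, and Acsl and Pdk had gained peaks. The product of AcCoAS makes acetyl-CoA from acetate. The peak had 7.68 in the etomoxir group and 8.20 in the control group, and the difference of -0.52 was among the smaller ones of the members.

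**Figure D4:**
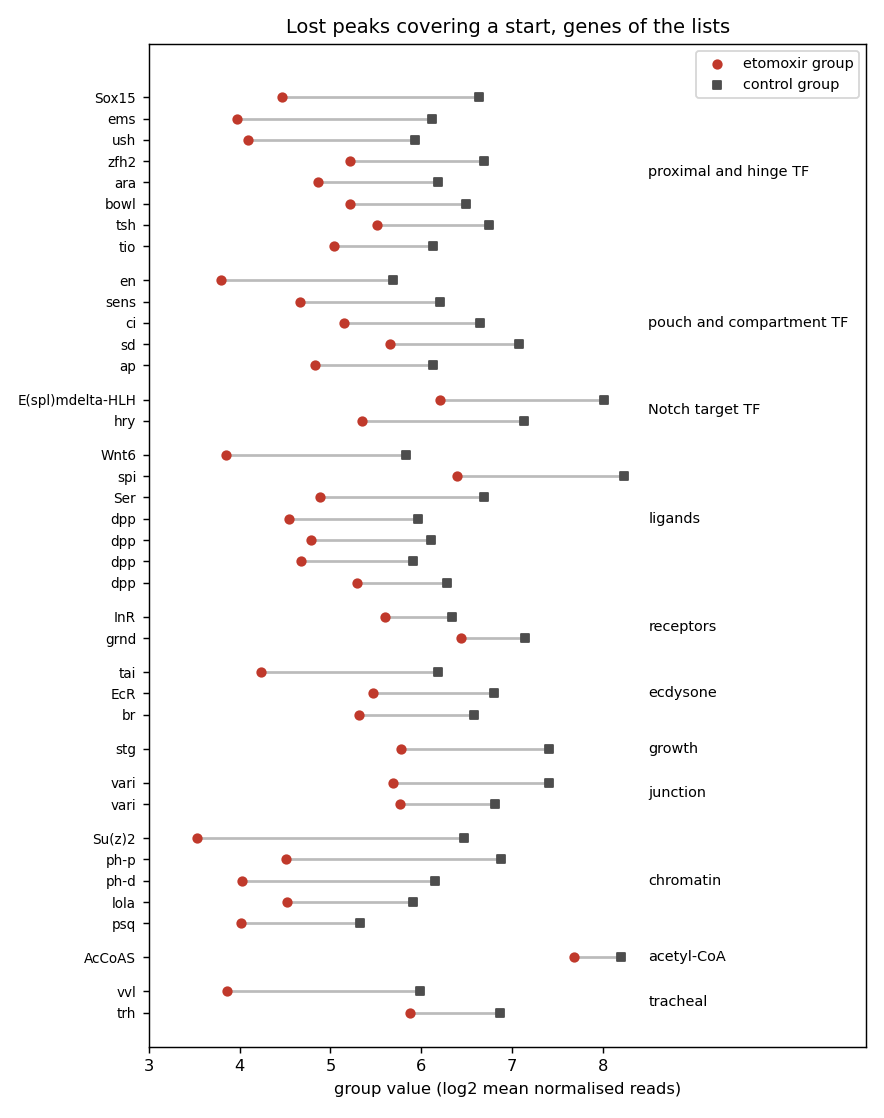
Each line is a lost peak over a start of a gene from the lists, with the etomoxir group value as a red circle and the control group value as a grey square on the x axis in log2 mean normalised reads. The gap is widest at Su(z)2 (3.53 against 6.47) and narrowest at AcCoAS (7.68 against 8.20).

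No member was assigned to any of 87 cytoplasmic ribosomal protein genes, 13 heat shock and chaperone genes or 10 housekeeping genes. At a background of 3.10%, lists as short as the chaperone and housekeeping genes often have none. Of the ribosomal protein genes, 2 (RpL37-1 and RpS23) had lost peaks away from a start and 6 had gained peaks. Gained peaks were also assigned to 7 of the chaperone genes and 1 of the housekeeping genes, and lost peaks to none of either list.

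Markers of the cell types that a dissected disc can hold were looked up in the same way. No myoblast marker (0 of 6), haemocyte marker (0 of 6) or neuron marker (0 of 4) had a member, which lists this short often show at a background of 3.10%. The myoblast factor gene Mef2 had a lost peak away from a start. Of the tracheal markers, 2 of 3 did, namely trh (5.87 in the etomoxir group, 6.87 in the control group) and vvl (3.86 and 5.99), and vvl is also active in the disc itself. Of the disc epithelium markers, ap had a member and vg, shg and crb had other lost peaks. In whole discs, fewer cells with a mark and less of the mark per cell cannot be told apart.

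Where a listed peak lay within 2000 bases of a member, it mostly shared the member's direction, and 83.5% of all listed peaks were lost. For 133 members (24.5%) the nearest listed peak was another lost peak within 2000 bases, and for 3 (0.552%) it was a gained one. The remaining members, the majority, had no other listed peak that near. Around the 197 gained peaks that cover a start, the nearest peak within this distance was gained for 60 (30.5%) and lost for 1. Only 5 genes had both a member and a gained peak. At Src42A, a Src family kinase named here after its values were seen, both kinds cover a start of the same gene. One start had 7.38 in the etomoxir group and 8.31 in the control group, the other 8.17 and 7.57.

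The chromosomes differed in the direction of their start peaks. Of the listed peaks that cover a start, 81 of 94 (86.2%) were lost on X, 105 of 126 (83.3%) on 2L, 128 of 149 (85.9%) on 3R, 105 of 150 (70.0%) on 3L and 120 of 180 (66.7%) on 2R. On chromosome 4, the small and largely heterochromatic chromosome, 4 of 41 (9.76%) were lost and 37 were gained. The lost peaks of chromosome 4 include the developmental regulators zfh2 and ci.

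Most members lie over a single start. A single reference start was present in 365 (67.2%), and starts of 2 or more genes in 114 (21.0%). The latter include the peaks given above for ci, E(spl)mdelta-HLH, trh, tio, Tina-1 and GstD2. The loss in such peaks cannot be assigned to a single gene. Starts on both strands were covered by 86 members (15.8%), as at Abp1, which shares its peak with Tgi. The peak with the most starts, 7 of them, lies at Amun and also covers starts of prtp, an endoplasmic reticulum chaperone (6.92 in the etomoxir group, 8.01 in the control group). Among the 446 members assigned to a coding gene, 328 (73.5%) cover the outermost start of that gene, and 118 (26.5%) cover internal starts only. At 364 peaks with coding starts on 1 strand, the peak reached a median of 525 bases upstream and 503 bases downstream of the assigned start, and it reached further downstream in 48.4% of them (95% interval 43.3 to 53.5).

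The sequence around the start was not used to choose the members, and 8 motifs were searched for in 150 bases from 100 before to 50 after the start. The TATA box and the initiator, whose letters are given above, were accepted at their known distance from the start on the strand of the gene. A downstream promoter element, spelled AGACGTG, was accepted likewise. It was held by 1 of the 446 coding members (0.224%), against 50 of all 19253 coding starts (0.260%). The DRE and the E-box were accepted anywhere in the window on either strand. The same held for motif 1, which was spelled as GGTCACACT. It held for the GAGA string, which was searched as GAGAGAG, and for the site of Grainyhead, an epithelial transcription factor, for which the letters AACCGGTT were used. No pair of these motifs was merged where they overlapped. A match is a string of letters and not a bound site.

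The initiator was found at 21.7% of the 446 coding members (95% interval 18.2 to 25.8), against 2.76% of the 181 gained coding starts (1.19 to 6.30) and 11.0% of all 19253 coding starts. The DRE had the reverse order, with 6.73% of the members (4.75 to 9.44), 19.3% of the gained starts (14.2 to 25.7) and 12.2% of all. Motif 1 was found at 1.57% of the members (0.762 to 3.20) and 4.34% of all. Starts in lost peaks held initiators more often and DREs less often than starts at large, and the counting intervals did not overlap. The intervals cover counting error only, and starts of the same gene are not independent. The TATA box was found at 4.48% of the members and 6.87% of all, and the E-box at 8.52% and 11.7%. Without chromosome 4, the initiator was at 21.5% of the members and 2.05% of the gained starts, and the DRE at 6.79% and 19.2%. The GC content of the same windows moved with the direction. Its median was 48.7% at the coding members, 36% at the gained starts and 42.7% at all coding starts, and its part in the motif shares was not tested. At the 82 members assigned to a non-coding RNA, the initiator was found at 4.88% (1.91 to 11.9). The share among all annotated non-coding starts was not computed, so this value has no background here.

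**Figure D5:**
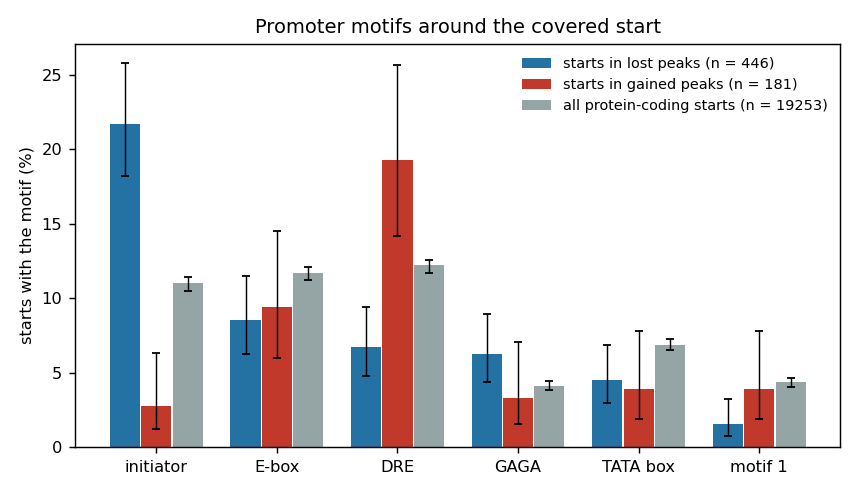
The y axis gives the percentage of starts with each motif among coding starts in lost peaks (blue), coding starts in gained peaks (red) and all annotated coding starts (grey), and error bars are 95% Wilson intervals. The initiator is most frequent in lost peaks (21.7%) and the DRE in gained peaks (19.3%).

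Members with the largest losses held the GAGA string more often than the others. The string is the one recognised by GAGA factor, which opens chromatin at developmental genes. In an ordering of the 446 coding members by difference, made after the data had been seen, it was found at 12.8% of the 148 with the largest losses (95% interval 8.37 to 19.2), 3.38% of the middle 148 (1.45 to 7.66) and 2.67% of the 150 with the smallest (1.04 to 6.66), against 4.11% of all coding starts. The 28 members with it had a median difference of -1.21, and the 418 without it -0.96. They belong to 28 genes, of which 5 (Su(z)2, en, Ser, ush and tsh) are on the gene lists above, where 34 of all 432 coding genes with a member are. The others include E2f1, Gpdh1, Prps, Qsox2 and mthl5. The initiator was found at 20.9%, 24.3% and 20% of the same 3 groups. Of the other motifs, the DRE was found at 4.05%, 8.78% and 7.33%, and the E-box at 10.1%, 6.08% and 9.33%. Median GC content of the windows was 50.7%, 48.0% and 47.3% in these groups. Across all members the difference also went with peak width and control value, as given above. The part of GC content, width and control value in the GAGA shares was not tested.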

How the data were processed

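H3K18ac Cut&Run libraries of wing discs (2 etomoxir, 3 control) were processed by the authors with Trim Galore 0.6.3, Bowtie2 2.4.2 on dm6, duplicate removal, MACS2 2.1.1.20160309.6, DiffBind 2.10.0 and ChIPseeker 1.18.0. The deposited log2 values are the authors' mean normalised read counts per peak and group. The methods mention yeast spike-in DNA, and its use for scaling is not given in the sources used here. The authors' p-value and FDR columns and their fold change were not used, except to check that the FDR of every listed peak was under 0.05. The deposited distances run from each peak to its nearest start, in bases. Peak starts were read as counted from 0, which gave the deposited distance at 100% of peaks (63.3% if counted from 1), and coordinates are printed from 1. The value over all libraries equalled the mean weighted by 3 and 2 libraries within 0.02 at 100% of peaks.

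Group means allow no test, so none was made. Shares have 95% Wilson intervals. Starts and symbols came from Ensembl release 115 (BDGP 6.54), in which 98.5% of the members' gene identifiers were found, and bases from the RefSeq genome Release 6. Computations used Python 3.11.15, pandas 2.3.3, numpy 2.4.6, scipy 1.17.1 and matplotlib 3.10.9, and the motif search was tested on simulated data. The members, the lists and the rule for named genes (the 10 largest losses, the 10 highest control values, genes with 3 or more members, list members with the 4 largest losses, in situ probe genes, the peaks with the most starts and those at the threshold) were chosen with earlier results of these data known. Osa, mab-21 and other neighbours, Src42A and the genes listed with GAGA were named after their values were seen.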

Additional observations from a re-analysis of the deposited data

How the results depend on the processing

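The number of lost peaks over a start was 543, also with starts taken from the reference annotation, 532 with a start within 500 bases of the peak centre, 477 with a control value of at least 6 and 528 with 1 peak per gene. Their median difference of -1.0 stayed between -1.0 and -0.96 with reference starts, control values of at least 6 or 1 peak per gene. Without chromosome 4 it was -1.0, and for non-coding starts only it was -1.22, a split made after seeing the data. It was not computed for the setting with a start within 500 bases of the peak centre. The share of lost peaks among those over a start was 73.4%, 73.2% with reference starts and 68.8% with a value over all libraries of at least 6. The share with starts on both strands was 15.8%, and 11.2% when only coding starts counted. The other 31 values, motif shares at the start nearest the peak centre and list counts over every gene with a start inside, moved by less than their limits. Settings that leave out a library were not run, because the values are group means. No paired analysis was possible because the table has no value per library. An error for each difference cannot be given, and peaks above the FDR limit were not analysed here.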

Other observations

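Further gene groups were looked up after the data had been seen, so their counts are descriptions of chosen lists. Of 23 genes of the cell cycle and mitosis, 8 (34.8%) had a lost peak over a start, and the median difference was -0.83. The largest was that of stg. E2f1, the transcription factor of S phase entry, had 4.83 in the etomoxir group and 6.36 in the control group, and the spindle checkpoint gene Bub3 had 5.62 and 6.77. Its partner gene Mad1 (6.61 and 7.38), the chromosomal passenger gene Incenp (5.50 and 6.35) and the centriole kinase gene SAK (6.39 and 7.09) had differences of -0.77, -0.85 and -0.70. The peaks at stg, E2f1, Bub3 and Mad1 also cover starts of CG45544, lncRNA:CR46056, Cap-D2 and Drep2, in this order. The loss there cannot be assigned to a single gene. A gained peak was assigned to Cdk1.

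Of 23 genes of the EGF receptor pathway, 5 (21.7%) had a lost peak over a start. They span ligand processing and response. Beside the ligand gene spi these were S, which encodes the Star protein of ligand export (3.95 in the etomoxir group, 5.37 in the control group), csw, a phosphatase of the receptor cascade (6.13 and 6.84), and the repressors aop (4.65 and 6.28) and cic (4.47 and 6.0). A further 8 genes of the list had lost peaks away from starts, and rl, the MAP kinase gene, had a gained peak. Of 6 genes of Polycomb repressive complex 1, 3 had a lost peak over a start, and Psc had a lost peak elsewhere. Of 15 glycolysis and gluconeogenesis genes, Pgk and Pepck2 had one, and Pgi had a gained peak.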
